A study of Homo sapiens with 24 samples.

Results

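Collagens are secreted proteins whose α chains wind around each other in a helix and then assemble outside the cell into fibrils, networks or filaments. Fibril-forming chains build the tensile fibrils of connective tissue, type IV chains build the sheet-like network of basement membranes on which epithelial cells, carcinoma cells among them, sit, and fibril-associated chains decorate the surface of fibrils. In tumors most fibrillar collagen is known to come from fibroblasts, but cancer cells also transcribe collagen genes, and cells bind collagen through integrins and discoidin domain receptors. A list of 40 collagen chain genes of the COL family was taken as a group by name and not by a cutoff on their values, though with earlier results of these data known. Of these, 39 had a transcript cluster on the array annotated with that symbol alone, out of 18417 genes measured; COL17A1 was not analysed here, and COL11A2 was the only member with several clusters, of which the one with the highest mean was used. By structure, the list held 11 fibril-forming, 6 type IV, 3 short-chain network, 9 fibril-associated and 4 transmembrane chains, 4 chains of beaded filaments and a related gene, 2 multiplexins and the anchoring fibril chain COL7A1.

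The arrays covered H2009, H441, A549 and H460, established cell lines from human non-small cell lung cancer (NSCLC). Each line was stably transduced with a lentiviral shRNA against PKCδ (δ193) or with a scrambled shRNA (δscr), grown in culture without stroma, and profiled in 3 biological replicates per group on Affymetrix Human Gene 1.0 ST arrays, 24 in all. A single targeting shRNA was used on the arrays, so its effects on other transcripts and those of PKCδ loss cannot be told apart. Values are log2 levels after robust multiarray averaging (RMA), which describes how bright a gene's probes were and not a number of molecules.

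PRKCD, the gene for PKCδ, changed by -2.25 (H2009), -2.40 (H441), -1.26 (A549) and -2.03 (H460) on the log2 scale upon expression of δ193, with no overlap between the δ193 and δscr arrays of any line. Correlations between replicate arrays ran between 0.9819 and 0.9977. When arrays were weighted by their fit, δ193 replicates 2 and 3 of H441 received the lowest weights, 0.23 and 0.16, so collagen calls in H441 were also examined without either of them. In each of the 8 groups, 4 to 7 of 11 fibroblast and mural markers had a mean above 4.0, the 95th percentile of 341 olfactory receptor genes. PDGFRB, ACTA2 and TAGLN were above it in all groups, THY1 in all but the δscr cells of H460, LUM in H2009 alone, and PDGFRA, FAP, DCN and POSTN in none. The keratin genes KRT7, KRT8 and KRT18, which mark epithelial cells, were between 10.90 and 12.55 in all 8 groups. Lung markers were low in the cells labelled H441, a line known for surfactant protein: SFTPB averaged 3.96 in δ193 and 4.01 in δscr cells and NKX2-1 4.20 and 4.21, close to the olfactory receptor level. SFTPC (5.06 and 5.39) and NAPSA (4.63 and 5.09) lay above that level but below 5.79, the median of all genes, and the epithelial marker EPCAM was at 5.53 and 5.89, against 10.86 and 11.20 in H2009. The study's methods state that the cell lines were profiled to authenticate them. The identity of the cells on these arrays was not tested here.

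In the control cells, collagen genes were most often highest in H441. Among δscr arrays, 28 of the 39 collagen genes differed among the lines (F test of limma with an adjusted p under 0.05, and a range of at least 0.32 on the log2 scale), a share close to the 71.7% of all genes that did. H441 held the highest mean for 24 of these 28 genes (85.7%), against 29.1% of all genes that differed. It was called above the next line for 14 of the 24 (for all genes, 1780 of 3838), while for the other 10, COL5A1, COL27A1 and COL6A1 among them, it was not. The 24 also include COL24A1 (3.61), COL10A1 (3.30) and COL25A1 (3.85), whose H441 means lay below the olfactory receptor level of 4.0. A549 held the highest mean for 3, H460 for 1 and H2009 for none. Over all 39 genes, the range between lines varied from 0.14 for COL6A3 to 3.42 for COL4A6. With probe brightness as the only guide, 32 of the 39 genes exceeded the olfactory receptor level of 4.0 in at least 1 line, and 19 exceeded 5.79, the median of all genes; probes differ in brightness per transcript, so these counts rank no gene above another.

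**Figure D1:**
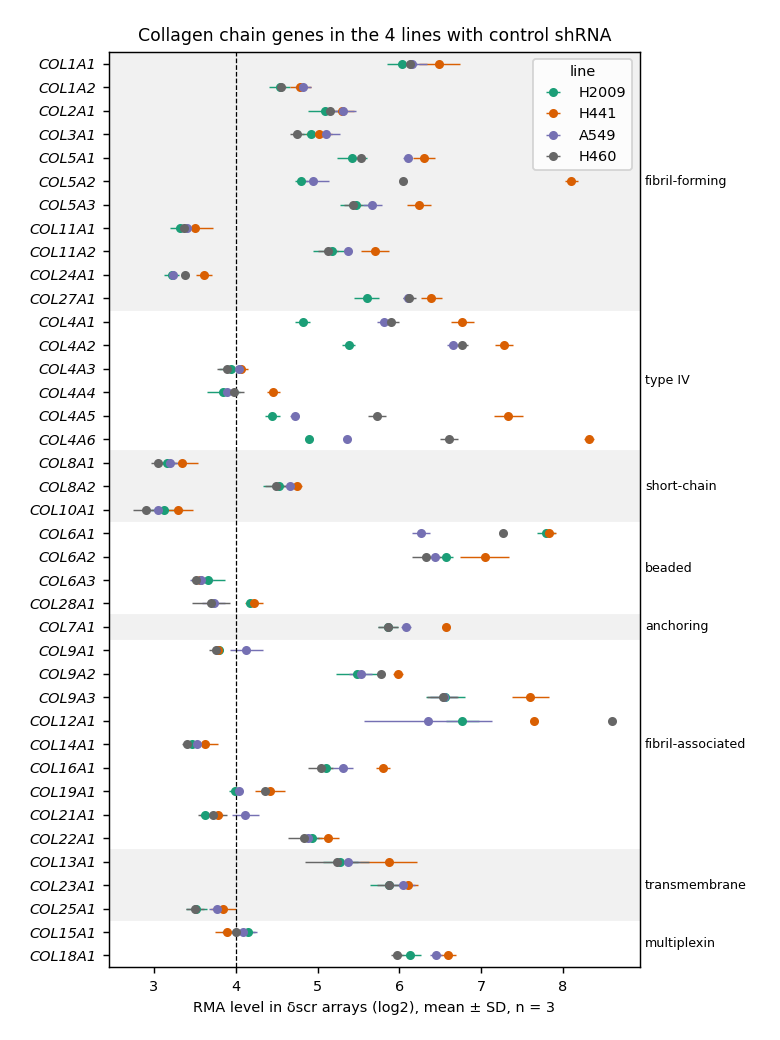
Levels of the 39 collagen genes in δscr cells. Points are means of 3 arrays on the log2 RMA scale with the SD as a bar, 1 color per line, the dashed line marks 4.0, the 95th percentile of olfactory receptor genes, and shaded bands separate the structural groups. COL4A6, COL5A2 and COL4A5 spread most between lines, with H441 highest, while COL12A1 was highest in H460.

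Type IV chains carried much of this spread. COL4A6 and COL4A5, which encode chains of a basement membrane network found in skin and smooth muscle, averaged 8.32 ± 0.06 and 7.33 ± 0.18 (SD, n = 3) in H441 δscr cells. In H2009 δscr cells their means were 4.90 ± 0.05 and 4.45 ± 0.09. The order for both was H441, H460, A549, H2009, and every pair of neighbours differed for COL4A6, while A549 and H2009 did not for COL4A5 (difference between H2009 and A549 of -0.27, adjusted p = 0.098). COL4A1 and COL4A2, the chains of the network common to nearly all basement membranes, were also highest in H441 (6.77 ± 0.14 and 7.28 ± 0.11) and lowest in H2009 (4.82 ± 0.09 and 5.38 ± 0.08), with A549 and H460 between them and not called different from each other. COL4A3 and COL4A4, chains of the glomerular and alveolar basement membrane, stayed between 3.85 and 4.46 in all lines, which is near the olfactory receptor level.

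Among fibril-forming chains, COL5A2, a type V chain that enters type I fibrils and limits their width, had the widest range. Its mean was 8.10 ± 0.08 in H441, 6.05 ± 0.02 in H460, 4.95 ± 0.19 in A549 and 4.80 ± 0.08 in H2009 δscr cells. H441 was thus 9.87-fold above H2009 (adjusted p = 2.95e-18), and only A549 and H2009 did not differ. The major type I chains differed little: COL1A1 spanned 0.46 and COL1A2 0.28 on the log2 scale over the 4 lines. COL12A1, the fibril-associated type XII chain, had another order, with 8.60 ± 0.04 in H460, 7.64 ± 0.01 in H441, 6.77 ± 0.20 in H2009 and 6.35 ± 0.78 in A549. H460 lay above H441 (adjusted p = 0.00126), H441 above H2009 (0.00252), and H2009 and A549 were not called different (0.146). COL6A1, a chain of the beaded filaments of type VI, was alike in H441 (7.83 ± 0.08) and H2009 (7.79 ± 0.11), lower in H460 (7.26 ± 0.03) and lowest in A549 (6.27 ± 0.11). COL9A3, a fibril-associated chain known from cartilage, stood at 7.60 in H441 and between 6.53 and 6.56 in the other lines.

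With PKCδ depleted, 8 collagen genes changed in at least 1 line and 31 in none, with 12 calls in all, 4 of them higher and 8 lower. In H2009, 4 genes rose (10.3%; over all genes 2.66% rose) and none fell (2.25% of all genes fell). In H441, 4 genes fell (10.3%, against 7.22% of all genes) and none rose (7.09% of all genes). In A549, 2 genes fell (5.13%, against 2.58%) and none rose (2.05% of all genes). In H460, 2 fell (5.13%, against 3.44%) and none rose (2.01% of all genes). Being called in at least 1 line was no more frequent among collagen genes (20.5%) than among all genes (22.5%). A call here needs an adjusted p under 0.05 from limma, with the Benjamini-Hochberg adjustment over 18417 genes, and a change of at least 0.32 on the log2 scale, the fold minimum of the study's methods.

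**Figure D2:**
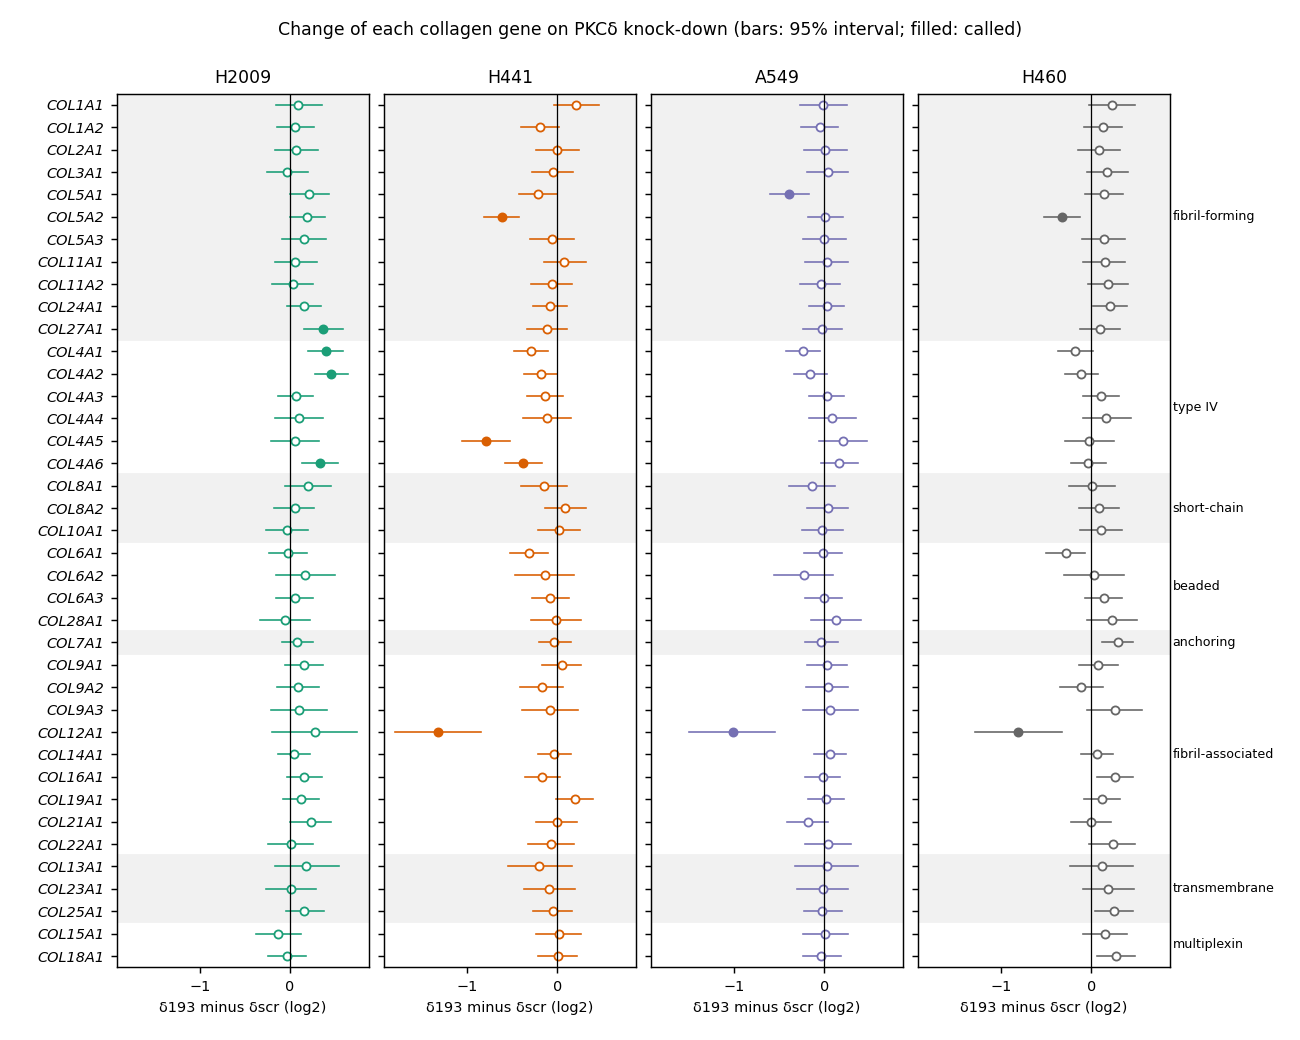
Change of each collagen gene in each line. Points are δ193 minus δscr on the log2 scale with the 95% interval of the limma fit, filled where called, and bands mark structural groups. COL12A1 stands furthest left in H441, A549 and H460 and right of 0 in H2009.

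The 31 genes that were not called had changes between -0.31 and 0.30, with standard errors from 0.08 to 0.17 and 95% intervals that reached at most from -0.56 to 0.57. The median change of the 39 genes was 0.09 in H2009, where that of all genes was 0.01. It was -0.08 in H441 (all genes 0.00) and 0.00 in A549 (all genes 0.01), while H460 had a median of 0.12 (all genes 0.01). H2009 showed positive changes for 33 collagen genes (9961 of 18417 genes overall), H460 for 31 (9814), A549 for 20 (9516) and H441 for 8 (9253). Among the 9208 genes with a mean below the median, 26 collagen genes among them, H2009 had 5097 positive changes, H460 5970, A549 4681 and H441 4137. These dim genes leaned the same way in H2009, H460 and H441, but less than the collagen genes. Their median changes were 0.02, 0.05 and -0.02 there. The part of brightness in the lean of the collagen genes was not tested. Arrays of δ193 and δscr did not overlap for 9 collagen genes each in H2009 (25.9% of all genes) and H441 (21.3%), 8 in A549 (24%) and 15 in H460 (34.2%), so this count was close to that of all genes. The 9 genes of H441 were all lower in δ193 cells. In H460 the 10 that were higher in δ193 cells, among them COL1A1 (0.23), COL3A1 (0.18), COL16A1 (0.27) and COL7A1 (0.30), did not pass the rule for a call, although COL7A1, the chain of anchoring fibrils, had an adjusted p of 0.0396.

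COL12A1 had the largest change of any collagen gene and fell in 3 of the 4 lines. Type XII collagen lies along type I fibrils and links them to other matrix proteins. The gene occupies chr6:75084326-75206053 of GRCh38.p14 on the minus strand. The 250 bases before its start, taken from RefSeq as were promoters for 30 of the 40 collagen genes, are shown because no other member changed in 3 lines. Capitals mark the only match among the motifs searched on both strands (the CCAAT box, the GC box GGGCGG, the TATA box as TATAAA and the AP-1 motif TGANTCA), a GC box read on the opposite strand.
COL12A1, chr6:75206054-75206303, minus strand: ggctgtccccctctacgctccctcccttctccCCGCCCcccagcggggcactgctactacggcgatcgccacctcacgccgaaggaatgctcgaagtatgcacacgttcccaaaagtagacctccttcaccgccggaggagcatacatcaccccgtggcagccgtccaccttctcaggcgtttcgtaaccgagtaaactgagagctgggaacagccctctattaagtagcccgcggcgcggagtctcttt
GGGCGG was found in the same window of 17 of 30 collagen promoters and of 42.3% of 27305 promoters. A match is a string of letters and no measured binding.

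In H441, COL12A1 was at 6.52, 5.95 and 6.47 on the δ193 arrays and at 7.64, 7.65 and 7.63 on the δscr arrays. All δ193 values were below all δscr values, and the mean fell by 1.33 ± 0.23 (SE), a 2.51-fold difference with an adjusted p of 0.000281. Without δ193 replicate 2 the change was -1.14 and without replicate 3 it was -1.40. In H460 the δ193 arrays read 7.79, 7.81 and 7.78 and the δscr arrays 8.62, 8.55 and 8.63. Both groups were tight and far apart (change of -0.81 ± 0.23, adjusted p = 0.0382), although the standard error shared by all lines was wide for this gene, and leaving out any 1 of the 6 H460 arrays raised the adjusted p above 0.05 (up to 0.118). Fitted on its own 6 arrays, H460 gave an adjusted p of 7.52e-05 for the same change.

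The A549 arrays disagreed with each other. COL12A1 was at 5.42, 5.53 and 5.03 with δ193 and at 7.25, 5.87 and 5.93 with δscr. The groups did not overlap, but 1 δscr array stood more than 1 unit above the other two. The change was -1.02 ± 0.23 (adjusted p = 0.00815). It was -0.58 without that δscr array (replicate 1) and lost its call without δ193 replicate 3 (-0.88, adjusted p = 0.0669). The standard error was that shared by all lines, and A549 fitted on its own 6 arrays gave no call for COL12A1. The test of the study's methods, with or without adjustment, gave none either.

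H2009 went the other way without passing the test. COL12A1 read 7.02, 7.19 and 6.93 in δ193 cells and 6.64, 7.0 and 6.66 in δscr cells, groups that overlap, for a change of 0.28 (95% interval -0.20 to 0.75, adjusted p = 0.641). The change in H2009 exceeded that in H441 by 1.60 ± 0.33 (adjusted p = 0.0032) and that in A549 by 1.30 (0.0242), whereas its difference from H460, 1.08, was not called (0.0635).

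COL5A2 fell in the lines where it was brightest. The gene lies at chr2:189031898-189441111. In H441 it read 7.48, 7.52 and 7.46 with δ193, against 8.19, 8.03 and 8.09 with δscr, and fell by 0.61 ± 0.09 (1.53-fold, adjusted p = 7.16e-05). In H460 it read 5.78, 5.71 and 5.68 with δ193 and 6.03, 6.05 and 6.07 with δscr, a decrease of 0.33 that just met the minimum fold (adjusted p = 0.0391). The arrays of the groups did not overlap in either line. The H460 call was lost when any 1 of its 6 arrays was left out, with adjusted p up to 0.152, whereas the H441 call held in each of the 24 fits with an array left out. Changes of 0.19 in H2009 and 0.01 in A549 were not called, and H2009 differed from H441 by 0.81 ± 0.13 (adjusted p = 0.000441). Its partner COL5A1, the other common type V chain, did not follow it: COL5A1 averaged 5.71 ± 0.10 in δ193 and 6.10 ± 0.06 in δscr cells of A549, a decrease of 0.39 ± 0.10 (adjusted p = 0.0278) that was called in no other line and lost its call in 4 of the 6 fits without an A549 array.

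**Figure D3:**
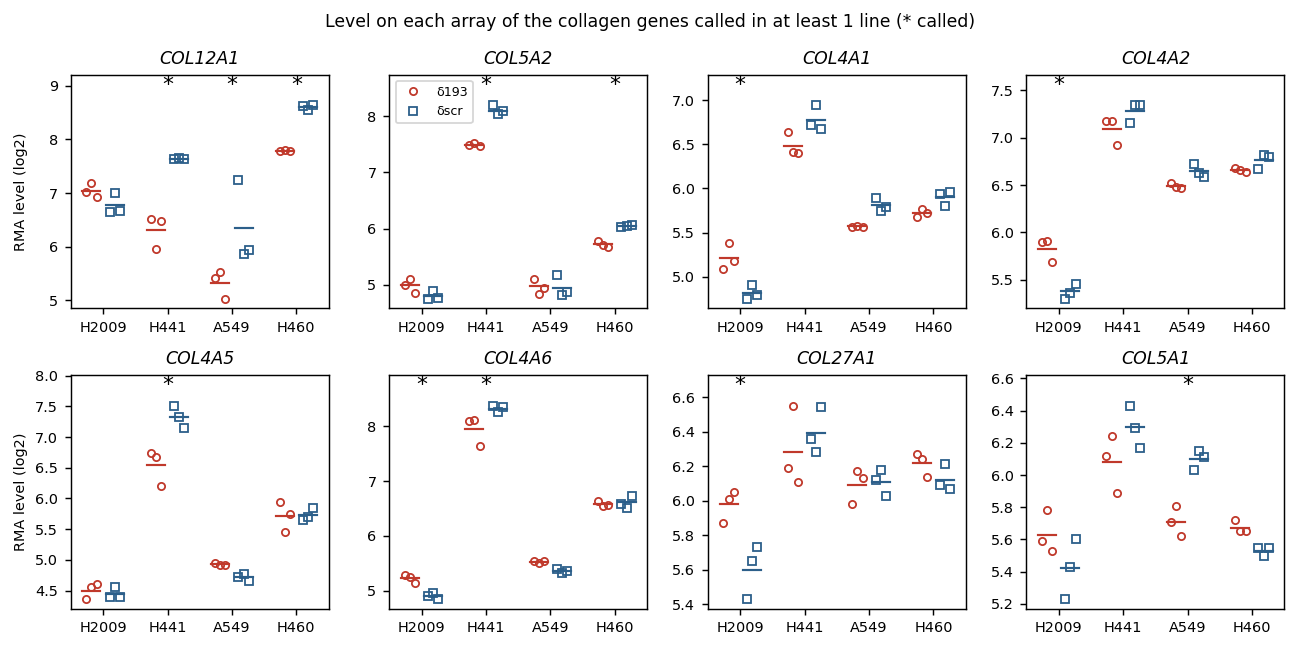
Level of the 8 collagen genes called in at least 1 line, on every array. Circles are δ193 and squares δscr arrays on the log2 RMA scale, bars are group means of 3, and an asterisk marks a call. The δscr arrays of A549 for COL12A1 include a single high value, 7.25, and the vertical scale differs between panels.

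Type IV collagen genes lie head to head in pairs, each pair transcribed from a shared stretch in opposite directions. COL4A1 (minus strand) and COL4A2 (plus strand) start 126 bases apart on chromosome 13, COL4A6 (minus) and COL4A5 (plus) 379 bases apart on the X chromosome, and COL4A4 (minus) and COL4A3 (plus) 135 bases apart on chromosome 2. The stretches before the starts of the pairs that changed are shown so that the changes of the 2 partners can be read against the sequence they share. Both are given on the strand of the plus-strand gene, and capitals mark CCAAT and GGGCGG on either strand.
COL4A1 to COL4A2, chr13:110307158-110307283, plus strand, complete between the starts: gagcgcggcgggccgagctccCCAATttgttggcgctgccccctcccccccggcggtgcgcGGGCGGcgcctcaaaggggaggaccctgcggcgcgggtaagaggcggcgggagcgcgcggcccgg
COL4A5, chrX:108439588-108439837, plus strand, within the stretch between the starts: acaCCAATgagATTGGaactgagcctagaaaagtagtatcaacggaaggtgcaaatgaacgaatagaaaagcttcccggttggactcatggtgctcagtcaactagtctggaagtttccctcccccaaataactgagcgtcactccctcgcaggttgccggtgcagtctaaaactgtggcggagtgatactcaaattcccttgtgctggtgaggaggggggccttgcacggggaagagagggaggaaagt
The first held a CCAAT and a GGGCGG and was 80.2% G and C. The second held CCAAT on both strands, next to each other, and was 51.2% G and C. CCAAT was found in the 250 bases before 9 of 30 collagen gene starts, COL4A1, COL4A2, COL4A5 and COL4A6 among them, and before 33.0% of all starts. The windows of COL4A1 and COL4A2 both hold the 126 bases between them, so 1 match counts for both genes. With starts 379 bases apart, the windows of COL4A5 and COL4A6 overlap too, so these genes may also share matches. The 9 are thus not all separate stretches. The GGGCGG between COL4A1 and COL4A2 likewise counts for both genes among the 17 of 30 collagen promoters with that motif. TATAAA (11.1% of all promoters) and TGANTCA (6.60%) were in neither stretch, and no matches overlapped.

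COL4A1 and COL4A2 rose together in H2009, the line where both were lowest. COL4A1 read 5.09, 5.38 and 5.18 with δ193, against 4.75, 4.91 and 4.79 with δscr (0.40 ± 0.09, adjusted p = 0.0111). COL4A2 read 5.90, 5.91 and 5.69 with δ193, against 5.30, 5.36 and 5.46 with δscr (0.46 ± 0.09, adjusted p = 0.00235). Neither gene's groups overlapped. In the other lines both moved down by small amounts that were not called: H441 had -0.29 for COL4A1 and -0.18 for COL4A2, A549 -0.24 and -0.16, and H460 -0.18 and -0.11. The H441 change of COL4A1 had an adjusted p of 0.0339 but was 1.22-fold. For both genes the change in H2009 was above that in each other line, by 0.57 to 0.69 for COL4A1 and 0.56 to 0.64 for COL4A2, with adjusted p between 0.00188 and 0.0114. COL4A1 lost its call without δ193 replicate 2 or δscr replicate 1 of H2009, with adjusted p of 0.0948 and 0.0652, and COL4A2 kept its call in all 24 fits with an array left out.

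COL4A5 and COL4A6 fell together in H441, where both were highest. COL4A5 read 6.74, 6.68 and 6.20 with δ193 and 7.51, 7.33 and 7.15 with δscr, a decrease of 0.79 ± 0.13 (1.73-fold, adjusted p = 0.00014). The groups did not overlap, and the decrease was 0.62 without δ193 replicate 3. COL4A6 read 8.09, 8.11 and 7.64 with δ193, against 8.37, 8.25 and 8.34 with δscr, a decrease of 0.38 ± 0.10 (adjusted p = 0.00897). This rested in good part on δ193 replicate 3, without which COL4A6 changed by -0.22 and was no longer called. In H2009 COL4A6 rose, with 5.29, 5.25 and 5.15 in δ193 cells and 4.90, 4.96 and 4.85 in δscr cells (0.33 ± 0.10, adjusted p = 0.0489). That value stood at the limits of both criteria and lost its call in 21 of the 24 fits with an array left out. COL4A6 was the only collagen gene called in both directions, and H2009 differed from H441 by 0.71 ± 0.14 (adjusted p = 0.00219). COL4A5 did not move with it in H2009 (0.05, 95% interval -0.21 to 0.32).

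**Figure D4:**
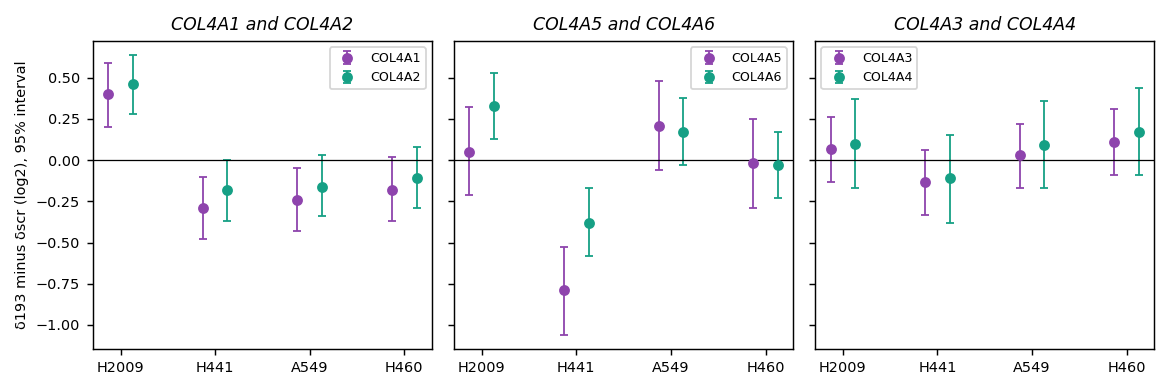
Changes of the type IV collagen genes by head-to-head pair. Points are δ193 minus δscr on the log2 scale with 95% intervals in the 4 lines. COL4A1 and COL4A2 are above 0 in H2009 and below it elsewhere, COL4A5 and COL4A6 are below 0 in H441, and COL4A3 and COL4A4 span 0 in every line.

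H441 was the only line with a call for COL4A5, which changed by -0.79 there and by 0.05, 0.21 and -0.02 in H2009, A549 and H460, and H441 differed from each of them (adjusted p between 0.000908 and 0.0157). Across all 4 lines, 7 collagen genes had changes that differed (17.9%, against 14.1% of all genes), namely COL5A1, COL5A2, COL4A1, COL4A2, COL4A5, COL4A6 and COL12A1. COL27A1, a fibril-forming chain known from cartilage, rose in H2009 (5.98 ± 0.09 in δ193 and 5.60 ± 0.15 in δscr cells, change 0.37, adjusted p = 0.0419), but its changes were not called different among lines (adjusted p = 0.112), and 11 of the 24 fits with an array left out did not call it.

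By structure, all 6 type IV genes had positive changes in H2009 (median 0.22, 3 called) and all 6 negative ones in H441 (median -0.24, 2 called). Of all genes, 2.66% were called higher in H2009 and 7.22% lower in H441. The lean was not particular to type IV. In H2009, 10 of 11 fibril-forming and all 9 fibril-associated genes were positive, and in H441 9 and 7 of them were negative. The 2 multiplexins went the other way in both lines. Of 11 fibril-forming genes, 1 was called in each line. Of 9 fibril-associated genes, COL12A1 was the only one called. None of the short-chain, beaded filament, anchoring fibril, transmembrane or multiplexin genes was called in any line. COL6A1 came nearest, with 7.64, 7.66 and 7.25 in δ193 and 7.85, 7.90 and 7.74 in δscr cells of H441 (-0.31, adjusted p = 0.0384, 1.24-fold). COL18A1, whose product releases endostatin, changed by between -0.04 and 0.28 and was not called.

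Of 64 genes measured that modify, process, bind or cut collagen, or bind its fibrils, most were not called. In H2009 6 were called (9.38%, against 4.91% of all genes), in H441 17 (26.6%, against 14.3%), in A549 6 (9.38%, against 4.63%) and in H460 9 (14.1%, against 5.45%). Of 19 modifying and folding genes, H2009 had 2 that fell, H441 had 3, A549 had 1 that fell and 1 that rose, and H460 had 2 that fell. Called shares of this list were 15.8% in H441, near that of all genes, and 10.5% in each other line. PLOD2, a lysyl hydroxylase whose product prepares stable cross-links, averaged 9.83 ± 0.08 in δ193 and 10.48 ± 0.04 in δscr cells of H2009 (-0.65 ± 0.14, adjusted p = 0.00622). FKBP10, a collagen chaperone, fell by 0.58 in H441 and by 0.50 in H460 (adjusted p = 5.51e-05 and 0.000616), and P3H4, a partner of lysyl and prolyl hydroxylases, by 0.69 and 0.43 there (1.61e-05 and 0.00571). P3H2, a prolyl hydroxylase that acts on type IV collagen, fell by 0.73 in A549 (7.28 ± 0.18 in δ193 and 8.01 ± 0.18 in δscr cells, adjusted p = 0.000229) and was called in no other line.

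Of 13 genes for propeptide cleavage and cross-linking, 5 fell in H441 (38.5%, against 7.22% of all genes). In H2009 1 rose (7.69%, against 2.66%) and in H460 1 fell (7.69%, against 3.44%). LOXL1, a lysyl oxidase, averaged 8.53 ± 0.31 in δ193 and 9.70 ± 0.26 in δscr cells of H441 (-1.18 ± 0.13, adjusted p = 1.14e-06). LOXL2, another lysyl oxidase, had a smaller change (-0.49, adjusted p = 0.047) that was -0.19 without δ193 replicate 3 and lost its call in 19 of 24 fits with an array left out. BMP1, the procollagen C-proteinase, changed by -0.40 with overlapping arrays (adjusted p = 0.0399), and by -0.23 without δscr replicate 1. TLL1, a protease related to BMP1, rose by 0.54 in H2009 (adjusted p = 0.00184) and fell by 0.49 in H441 (0.00141) and by 0.35 in H460 (0.0441), where the call was lost in 8 of 24 fits with an array left out (adjusted p up to 0.203). Of 14 collagen receptors, H2009 had 1 called (7.14%, against 4.91% of all genes) and H441 had 5 (35.7%, against 14.3%). A549 and H460 had 3 each (21.4%, against 4.63% and 5.45%). ITGA2, the α subunit of a collagen-binding integrin, averaged 8.01 ± 0.03 in δ193 and 9.03 ± 0.14 in δscr cells of H2009, and 7.48 ± 0.82 and 8.50 ± 0.19 in those of H441. The H441 change of -1.03 was -0.56 without δ193 replicate 3, the array at 6.55. ANTXR2, a receptor for type IV and type VI collagen, was higher with δ193 in A549 (6.04 ± 0.08 in δ193 and 5.10 ± 0.15 in δscr cells) and in H460 (8.03 ± 0.04 and 6.99 ± 0.08). MRC2, which takes up collagen for degradation, fell by 0.86 in A549 and 0.67 in H460 (adjusted p = 0.000525 and 0.00562).

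Of 10 collagen-cleaving proteases, 1 fell in H2009, 3 fell and 1 rose in H441, none was called in A549, and 1 fell and 1 rose in H460. MMP9, a gelatinase that cleaves denatured and type IV collagen, averaged 4.61 ± 0.25 in δ193 and 6.37 ± 0.33 in δscr cells of H2009 (-1.77 ± 0.14, adjusted p = 4.88e-08), and was between 3.74 and 4.17 in the δscr cells of the other lines. MMP2, the other gelatinase, averaged 8.42 ± 0.36 in δ193 and 9.50 ± 0.14 in δscr cells of H441 and fell by 1.08 ± 0.16 (adjusted p = 5.6e-05), and by 0.60 in H460 (0.026), where leaving out any 1 of the 6 H460 arrays ended the call (adjusted p up to 0.0988). Of 8 small proteoglycans that bind fibrils, LUM fell in H2009 (-0.67), FMOD rose in A549 (0.58) and OGN fell in H460 (-0.40, not called without δ193 or δscr replicate 2), all at levels below 5.

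**Figure D5:**
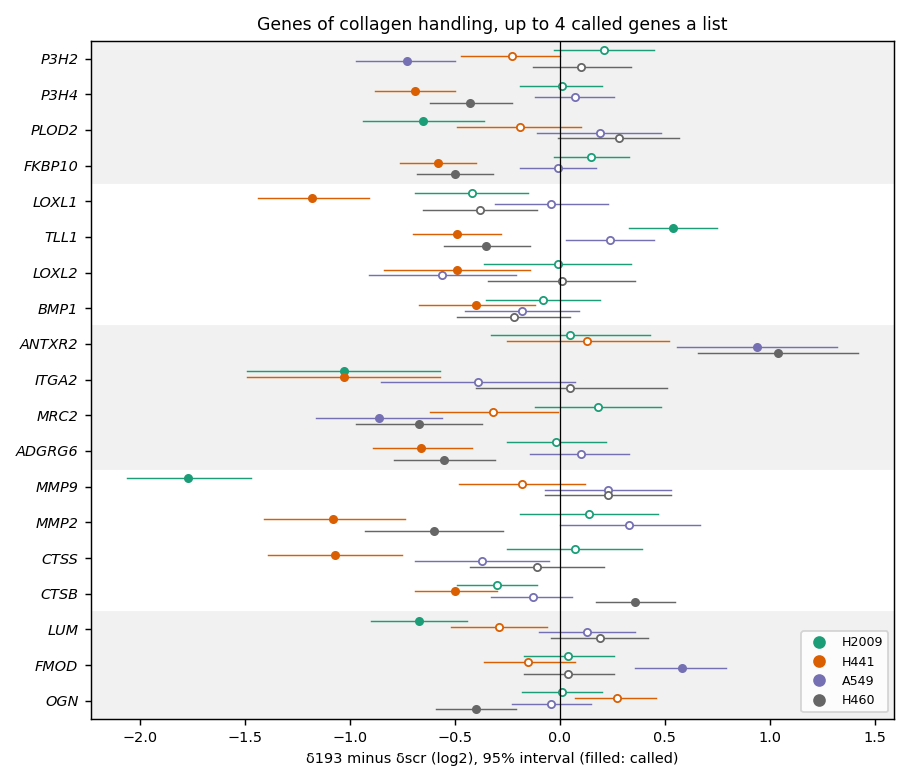
Changes of genes that handle collagen, up to 4 called genes from each of 5 lists separated by shading. Points are δ193 minus δscr on the log2 scale with 95% intervals, 1 color per line, filled where called. MMP9 and ITGA2 in H2009 and LOXL1, MMP2, CTSS and ITGA2 in H441 stand furthest left, and ANTXR2 in A549 and H460 furthest right.

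Some genes listed as markers of cell identity also changed in these lines. Of 12 epithelial and lung markers, CDH1, which encodes E-cadherin, KRT19 and NAPSA fell in H441 (25.0%, against 7.22% of all genes). CDH1 averaged 5.20 ± 0.73 in δ193 and 6.41 ± 0.21 in δscr cells of H441 (-1.20 ± 0.24, adjusted p = 0.0012). CDH1 thus varied widely among the δ193 arrays, and these H441 marker calls were not examined with an array left out. The linear levels of all 12 summed to between 8960 and 10200 on δ193 arrays and between 11000 and 12000 on δscr arrays of H441. Fibroblast and mural markers summed to between 374 and 468 on δ193 and between 417 and 463 on δscr arrays of H441, ranges that overlap. In H2009 the epithelial and lung markers summed to between 15800 and 16100 on δ193 and between 17200 and 17800 on δscr arrays, with none called. In H460 they summed to between 8480 and 8860 on δ193 and between 8990 and 9140 on δscr arrays, although KRT19 rose by 1.2 (adjusted p = 2.15e-07), and in A549 the sums overlapped and CLDN4 rose by 0.58 (0.000167). The 9 endothelial and immune markers summed to more with δ193 in H2009 (863 to 924, against 747 to 773 with δscr) and in H460 (1750 to 1810, against 1470 to 1540). In both lines CD14 and CD68 were the only ones of the 9 above 4.0, except VWF in δ193 cells of H460. The sums thus rest mostly on few genes. In H2009 none of the 9 was called, and their median change was 0.02. Among the 9, PECAM1 fell in H441 (-0.51), and CD14 fell in A549 (-0.75) and rose in H460 (0.57). CSPG4 was the one of the 11 fibroblast and mural markers called in H441 and LUM the one called in H2009, both lower, and none was called in A549 or H460. A lone call makes up 8.33% of 12, 9.09% of 11 or 11.1% of 9 markers. Of all genes, H441 had a call for 14.3%, H460 for 5.45%, H2009 for 4.91% and A549 for 4.63%. The lone calls in H441 thus stayed below its share of all genes. Those in the other lines exceeded it but rest on 1 gene each. In H2009 the sum of fibroblast and mural markers was between 302 and 308 with δ193 and between 262 and 286 with δscr. The part of these shifts in the collagen changes was not tested.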

How the data were processed

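Total RNA of 4 NSCLC lines was hybridised to 24 Affymetrix Human Gene 1.0 ST arrays, 3 biological replicates for each of 8 groups. The authors used RMA in Affymetrix Power Tools (background correction, quantile normalization, summary per transcript cluster) and deposited the log2 values; the sources used here give no program versions. Array medians ran from 4.78 to 4.91, and no depth applies to arrays, so precision is set by their number. Of 33252 clusters, 19460 had 1 symbol, 1754 several and 12038 none; clusters with several or none were not used, and the cluster with the highest mean over 24 arrays stood for each of 18417 genes. Symbols were updated through Entrez IDs for 19429 clusters, and promoters and positions came from RefSeq (GRCh38.p14).

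limma 3.58.1 in R 4.3.3 was fitted to all arrays with 1 coefficient per group (lmFit, contrasts.fit, eBayes), without a block, because the labels state no pairing. δ193 was compared with δscr in each line, changes were compared among lines, and δscr groups were compared among lines. The Benjamini-Hochberg adjustment ran over all genes, and a call needed a 1.25-fold change with an adjusted p under 0.05. The replicates are called biological, but whether they were separate transductions is not given in the sources used here, so p-values measure the spread between these cultures. Members, lists and the rule for genes named (per-array values for members changed 2 fold or called in 2 or more lines, and up to 4 called genes of each related list) were chosen with earlier results of these data known. Members called in 1 line were given per array as well where their pair or line turned on them. The scripts were tested on simulated arrays. Alternatives were the methods' own test, other thresholds, filters, normalizations, fits of each line alone, array weights, a replicate block and each array left out. A planned comparison of line classes is not reported here.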

Additional observations from a re-analysis of the deposited data

Results flagged for a closer look

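For 7 collagen genes the change upon PKCδ depletion differed among the lines by the F test, and the widest gap between a pair of lines is given for each. The change of COL12A1 in H2009 (0.28) minus that in H441 (-1.33) was 1.60 ± 0.33 on the log2 scale (adjusted p = 0.0032). COL5A2 differed between the same lines by 0.81 ± 0.13 (adjusted p = 0.000441), COL4A6 by 0.71 ± 0.14 (0.00219), COL4A1 by 0.69 ± 0.13 (0.00188) and COL4A2 by 0.64 ± 0.12 (0.00213). The change of COL4A5 in H441 minus that in A549 was -1.0 ± 0.18 (0.000908), and that of COL5A1 in H2009 minus that in A549 was 0.60 ± 0.15 (0.0198). These genes also have changes by which they were picked out, so the gaps describe them and are no separate evidence. Groups of 3 arrays were too small for a test of single arrays, and the high δscr array of A549 for COL12A1, at 7.25, is given as a value.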

How the results depend on the processing

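Of 166 alternative values of the 12 called collagen changes, 41 lost the call, and of 288 with an array left out, 52 did. None reversed, but this could not test direction. Arrays of δ193 and δscr did not overlap for any of these changes, so leaving 1 out could not reverse them. Several alternatives altered only the test or the threshold and left the change itself as it was. The count of 4 collagen genes called in H2009 fell to 2 with a trended and robust spread, separate fits of the lines, equal array medians, cyclic loess, quantile normalization of the genes tested or all transcript clusters, and to 1 at an adjusted p under 0.01. A replicate block within each line also left 2 in H2009 (COL4A1 and COL4A2, not COL27A1 and COL4A6, with adjusted p of 0.0726 and 0.0764) and changed no other count by over 1.5 times; same-numbered arrays deviated with correlations between -0.09 and 0.28, over 0.1 in 2 of 12 pairs, both in H2009 (0.28, 0.16 and 0.10), and in 3 of 12 pairs both arrays correlated best with their own number, so the arrays are taken to share a number only. The methods' own test after Benjamini-Hochberg adjustment called 0 in H2009, 0 in H441 and 0 in A549, and without adjustment 1 in A549 (COL5A1), as did each line fitted alone and an adjusted p under 0.01 (there COL12A1). In H460 the count of 2 became 1 with a trended and robust spread and 0 with quantile normalization of the genes tested, all transcript clusters or an adjusted p under 0.01. For baselines, 12 in place of 28 were called with only genes above the median, since fewer members were tested. The cause of the other shifts was not tested. With 1 array left out, counts ran from 1 to 4 in H2009, 3 to 6 in H441, 0 to 2 in A549, 0 to 2 in H460, 7 to 8 for changes among lines and 25 to 29 for baselines. In H2009 the count was 1 without δ193 replicate 2 or δscr replicate 1 of that line, and 2 without δ193 replicate 3 or δscr replicate 2 of it, δ193 replicate 3 of A549 or any H460 array. In A549 it was 0 without δ193 replicate 3 and 1 without δ193 replicate 1, δscr replicate 2 or δscr replicate 3, and in H460 it was 1 without δscr replicate 1 (COL7A1) and 0 without any other H460 array. Low probe brightness limits the genes near 4.0, where changes are compressed.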
